A study of Mus musculus with 3 samples.

Results

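The antigen receptor complex of B cells and the surface proteins that tune it were followed through 8 genes, *Cd79a*, *Cd79b*, *Ms4a1*, *Cd22*, *Cr2*, *Fcer2a*, *Fcmr* and *Ly6d*, picked by name out of 32285 genes counted in each library. Their RNA was summed over B cells, which were called from UMIs (unique molecular identifiers, 1 per captured RNA molecule) of 3 other genes, *Igkc*, *Ebf1* and *Bank1*, so that no member took part in the call. The study was a syngeneic orthotopic transplant of the left lung in mice of the C57BL/6J background, with single-cell RNA sequencing of 3 libraries. A naive library came from unoperated mice, and the other 2 came from grafts of CD45.2+ donors placed in CD45.1+ recipients, which all went through 60 min of cold ischemia at 4 °C and 45 min of warm ischemia at 28 °C before 2 h or 3 d of reperfusion. The study lists its CD45.1+ mice as the congenic strain B6.SJL-Ptprca Pepcb/BoyJ. For recipient B cells, that difference in strain from naive B6 mice cannot be told apart from the group. Each library pooled the cells of 2 mice. The series text describes a sort for recipient CD45.1+ cells in all of them, and how that sort applied to naive mice that hold no recipient cells is not given.

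A B cell detects antigen with a membrane immunoglobulin whose tail is too short to signal, and the CD79A and CD79B subunits carry the activation motifs that are phosphorylated when antigen binds. Around that complex stand receptors that set the threshold of the response: CD21 lowers it for antigen coated with complement, while CD22 raises it by recruiting a phosphatase. CD23 and the IgM Fc receptor bind secreted antibody, and in mice the levels of CD21 and CD23 are used to tell follicular, marginal zone and B-1 cells apart.

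The members lie on 6 chromosomes of mouse build GRCm38 in the GENCODE vM21 annotation. *Cd79a* (ENSMUSG00000003379, chromosome 7, 24897381 to 24902197, plus strand) and *Cd22* (ENSMUSG00000030577, chromosome 7, 30865402 to 30880342, minus strand) share one of them, as do *Cr2* (ENSMUSG00000026616, chromosome 1, 195136811 to 195176716, minus strand) and *Fcmr* (ENSMUSG00000042474, chromosome 1, 130865669 to 130880791, plus strand). *Cd79b* (ENSMUSG00000040592) is at 106311341 to 106314762 on chromosome 11, *Ms4a1* (ENSMUSG00000024673) at 11249675 to 11266241 on chromosome 19, *Fcer2a* (ENSMUSG00000005540) at 3681737 to 3694175 on chromosome 8 and *Ly6d* (ENSMUSG00000034634) at 74762056 to 74763620 on chromosome 15, all on the minus strand. RefSeq promoter windows on GRCm38.p6, from 250 bases before to 50 after a start site, were matched by symbol for 5 of the 8, *Cd79a*, *Cd22*, *Cr2*, *Fcer2a* and *Fcmr*.

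The stretches below are the part of each window that lies before the RefSeq start and outside every annotated exon of the gene, on the gene's own strand. They are shown for a signaling subunit, for the member with a motif match and for the coreceptor and the Fc receptor that differed most at 2 h. Capitals mark a match to the EBF motif, EBF1 being the factor that drives B lineage genes.
Cd79a, chr7:24897247-24897380, plus strand: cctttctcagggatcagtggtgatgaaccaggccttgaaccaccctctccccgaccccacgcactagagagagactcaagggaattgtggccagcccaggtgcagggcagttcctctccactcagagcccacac
Cd22, chr7:30879029-30879176, minus strand: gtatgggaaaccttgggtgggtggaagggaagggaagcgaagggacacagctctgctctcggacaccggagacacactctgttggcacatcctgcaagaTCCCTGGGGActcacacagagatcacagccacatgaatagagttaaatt
Cr2, chr1:195176720-195176969, minus strand: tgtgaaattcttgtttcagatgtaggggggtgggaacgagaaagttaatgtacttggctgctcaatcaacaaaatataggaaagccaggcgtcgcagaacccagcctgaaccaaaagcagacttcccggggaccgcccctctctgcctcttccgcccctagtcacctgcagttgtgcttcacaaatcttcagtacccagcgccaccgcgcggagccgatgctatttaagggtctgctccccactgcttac
Fcmr, chr1:130865527-130865668, plus strand: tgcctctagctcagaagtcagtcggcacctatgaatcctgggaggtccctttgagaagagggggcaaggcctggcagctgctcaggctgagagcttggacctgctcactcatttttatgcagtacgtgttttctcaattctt

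The EBF motif searched was TCCCNNGGGA, which reads the same on both strands, and it stood in 0.904% of 32851 RefSeq promoter windows of this length. Among the windows of the 5 members, *Cd22* alone held a match, which began 49 bases before the RefSeq start. That start and the match lie inside the GENCODE span of *Cd22*, which on its minus strand begins at 30880342. The octamer ATGCAAAT was in 1.74% of all windows and the PU.1 motif GAGGAAGT in 3.20%, both searched on both strands, and none of the members' windows held either. A match is a run of letters and says nothing of binding, and the lack of one covers only these letters in these windows.

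The naive library held 2921 cells and 28538529 UMIs, the 2-h library 10328 cells and 10749100 UMIs and the 3-d library 9016 cells and 70750470 UMIs. The filters stated by the study left 2422, 10283 and 8324 cells, of which 571 (23.6%, exact binomial 95% interval 21.9 to 25.3), 761 (7.40%, 6.90 to 7.92) and 2037 (24.5%, 23.6 to 25.4) were called B cells. Depth differed between libraries, since the median B cell held 6284 UMIs in naive lung, 855 at 2 h and 5133 at 3 d. The share called at 2 h is not read as the share of B cells there. At 2 h, 894 cells with at least 5 UMIs of an antibody to CD45R, described below, had no lineage called, beside 17 at 3 d. The call sat on cells with B lineage RNA: *Pax5*, the factor that holds B cell identity, was in 94.0% of called B cells and 0.980% of T cells of naive lung, in 19.1% against 0.280% at 2 h and in 86.6% against 1.04% at 3 d. Pairs of libraries shared 1 to 23 barcodes. Neutrophil RNA also stood in the B cells, with a summed level over 8 of 8 neutrophil markers of 285 CPM (UMIs per 1000000 UMIs of the summed cells) in naive lung, 4354 at 2 h and 3919 at 3 d. Without the doublets called by Scrublet these sums were 145, 1480 and 751 CPM. With 1 library per group no test between groups is possible, and every interval here covers counting error only, not the spread between animals.

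Of the signaling subunits, RNA of *Cd79a* was lowest at 2 h while that of *Cd79b* differed little between libraries. *Cd79a* stood at 1951 CPM in naive B cells (exact Poisson 95% interval 1907 to 1997), 1354 at 2 h (1275 to 1436) and 1798 at 3 d (1775 to 1822). *Cd79b* gave 739 CPM (712 to 767) in the naive library, 694 (638 to 753) at 2 h and 793 (778 to 809) at 3 d. The 2-h level of *Cd79a* had a log2 ratio of -0.53 to naive (-0.62 to -0.44) and of -0.41 to 3 d (-0.50 to -0.32). *Cd79b* differed from naive by -0.09 at 2 h, with an interval that held 0 (-0.22 to 0.04), and by 0.10 at 3 d (0.04 to 0.16).

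RNA of *Ms4a1* and *Cd22* was higher in B cells of the 3-d library than in the other two. *Ms4a1*, which encodes CD20, the target of rituximab, measured 506 CPM (483 to 529) in naive lung, 384 (343 to 429) at 2 h and 686 (672 to 701) at 3 d. *Cd22*, the inhibitory lectin that binds sialic acid, was at 112 CPM (101.2 to 123), 110 (88.6 to 135) and 177 (169 to 184) in the same order. For *Ms4a1* the intervals of the 3 libraries did not overlap. For *Cd22* the naive and 2-h values were alike within counting error, with a log2 ratio of -0.02 (-0.36 to 0.31), while 3 d exceeded naive by 0.66 (0.51 to 0.82).

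*Cr2* is the complement receptor gene whose transcripts encode CD21 and, by splicing, CD35. Only 47 of its UMIs were counted at 2 h, and its log2 ratios of 2 h had the widest intervals of the members. Its level was 72.1 CPM (63.8 to 81.2) in naive B cells, 57.5 (42.3 to 76.5) at 2 h and 110 (105 to 116) at 3 d. Naive and 2 h overlapped, and 3 d lay above both, with a log2 ratio of 0.61 (0.42 to 0.81) to naive. The ratio of 2 h to 3 d was -0.94 (-1.39 to -0.52), the member ratio farthest from 0 in any of the 3 comparisons.

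The Fc receptors parted from each other. *Fcer2a*, the low-affinity IgE receptor CD23, was at 200.4 CPM (186 to 215) in naive lung, 166 (140 to 197) at 2 h and 212 (204 to 220) at 3 d. *Fcmr*, the receptor for the Fc part of IgM, was at 388 CPM (368 to 408), 215 (185 to 250) and 362 (352 to 373). The 2-h level of *Fcmr* was the lowest of the libraries, at -0.85 to naive (-1.08 to -0.62) and -0.75 to 3 d (-0.97 to -0.53), and its naive and 3-d levels were within 0.10 of each other on the log2 scale. *Fcer2a* differed from naive by -0.27 at 2 h (-0.54 to -0.003) and by 0.08 at 3 d, an interval that held 0 (-0.04 to 0.20).

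*Ly6d*, a small GPI-anchored protein used to mark commitment to the B lineage, followed the pattern of *Cd79a*. It measured 957 CPM (926 to 989) in naive B cells, 728 (671 to 789) at 2 h and 906 (889 to 923) at 3 d. The 2-h library was lowest, at -0.39 to naive (-0.52 to -0.27), and naive and 3 d differed by -0.08 (-0.13 to -0.02).

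**Figure D1:**
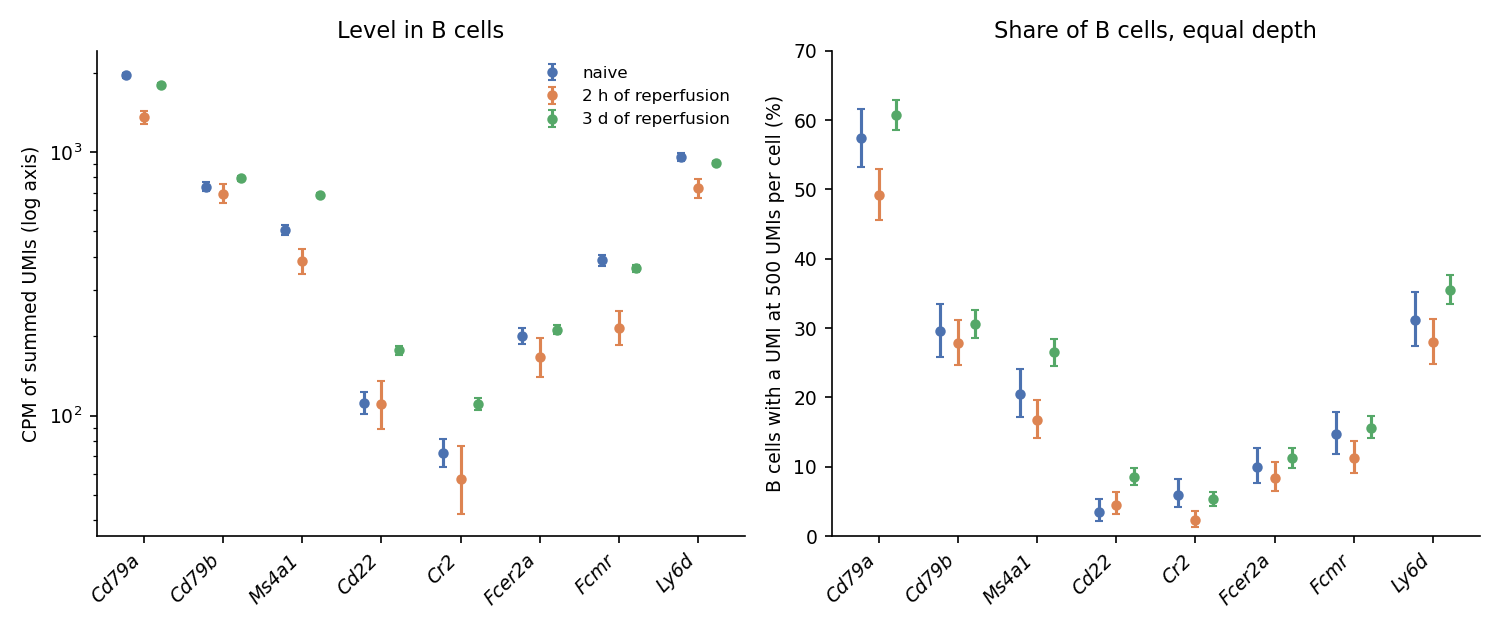
Level of the 8 members in called B cells of each library: left, CPM of summed UMIs on a log axis with exact Poisson 95% intervals; right, percent of B cells with a UMI after each cell was thinned to 500 UMIs, with exact binomial 95% intervals. Orange points (2 h) are the lowest of the 3 libraries for every member on the left, with *Cd22* at 110 CPM against 112 in naive B cells.

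As a group, the 8 members were below naive at 2 h in 8 of 8 genes, and so were most genes of these B cells. The median log2 ratio of 2 h to naive was -0.36 over the members and -0.34 over the 8039 genes that averaged at least 10 CPM. None of the members passed 2-fold in either direction, where 28.1% of all genes were past 2-fold lower and 9.01% past 2-fold higher. Relative to the median of all genes, 4 members were then above and 4 below. The median of the members came close to 0 without B cells that held UMIs of T or myeloid genes, as given in the closing section. The direction turned for *Cd22* in 9 of 11 alternative settings of the processing and for *Cd79b* in 6 of 11, so neither is read as lower than naive, and for *Ms4a1*, *Cr2*, *Fcer2a* and *Ly6d* it turned in 1 of 11 each.

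Between 3 d and naive the members divided. *Cd22*, *Cr2* and *Ms4a1* were the 3 highest ratios, at percentiles 88.8, 87.1 and 78.6 of all genes tested, and *Cd79a*, *Fcmr* and *Ly6d* were at -0.12, -0.10 and -0.08. The direction of those 3 turned in 6, 5 and 6 of 11 alternative settings, so none is read for them. The median was 0.09 over the members and -0.03 over all genes. No member passed 2-fold, against 18% of all genes lower and 4.76% higher.

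Between 2 h and 3 d, the pair of libraries processed with one Cell Ranger version, all 8 members were lower at 2 h. So were most of the genes tested in these B cells. The median was -0.55 over the members and -0.24 over all genes, and 14% of all genes were past 2-fold lower and 6.67% higher, with 0 members past either limit. *Cr2*, *Ms4a1*, *Fcmr* and *Cd22* had the lowest ratios, at percentiles 16.0, 19.7, 23.0 and 26.4 of all genes. *Cd79b* was the nearest to 0, at -0.19 (-0.32 to -0.07). *Cd79a*, *Fcer2a*, *Ly6d* and *Cd79b* were nearer the middle of all genes, at percentiles 40.3, 44.0, 45.7 and 53.1. Nothing is read from the direction shared by all 8.

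**Figure D2:**
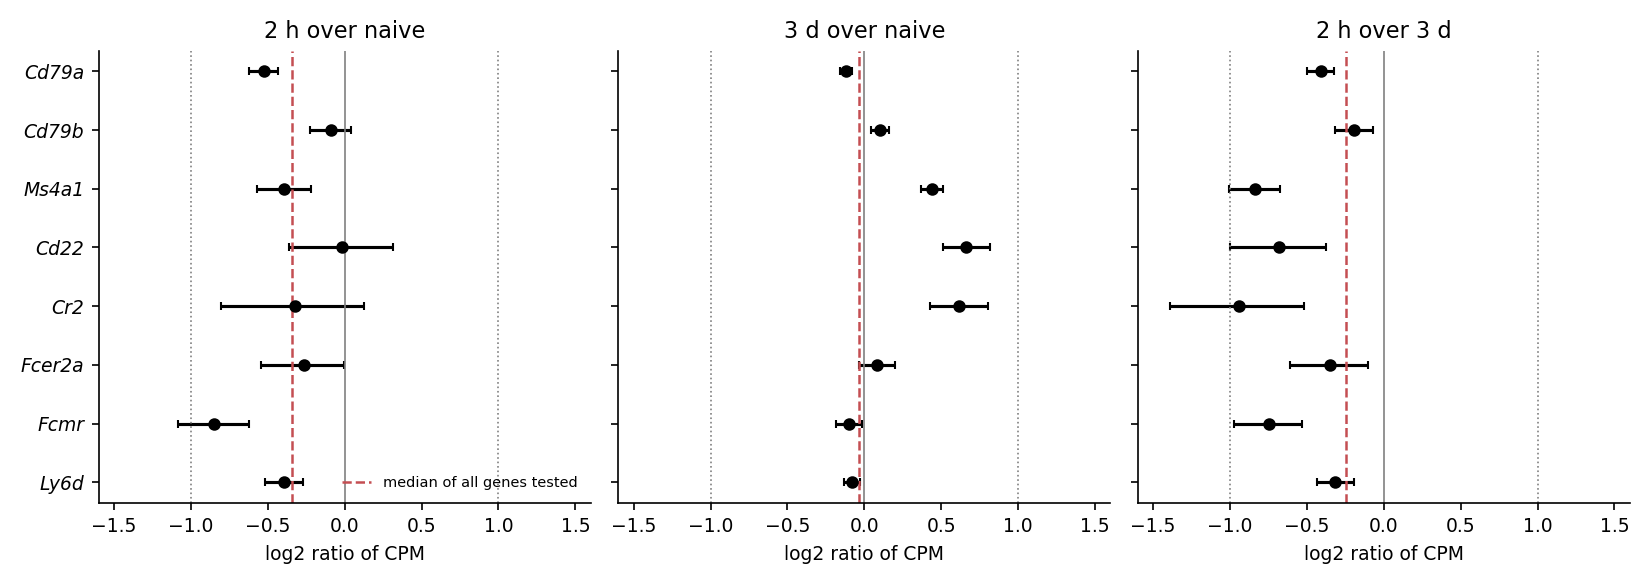
Log2 ratio of CPM in B cells for each member in 3 comparisons, with exact conditional 95% intervals for counting error. Dotted lines mark 2-fold and the dashed red line the median of the 8039 genes tested (-0.34, -0.03 and -0.24). No point lies past a dotted line, and all 8 points are left of 0 in the first and the third panel.

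The comparisons with naive moved with a property of the genes. Across the genes tested, the median log2 ratio of 2 h to naive was 0.73 for 222 genes with no intron, 0.25 for genes with under 10 kb of intron, -0.55 for 10 to 100 kb and -2.10 for over 100 kb. From 2 h to 3 d the same medians were 0.15, -0.08, -0.30 and -0.46. On this scale 5 members had under 10 kb of intron, from 821 bases in *Ly6d*, 1991 in *Cd79b* and 3360 in *Cd79a* to 9347 in *Fcer2a* and 9899 in *Cd22*, and 3 had 10 to 100 kb, with 10380 in *Ms4a1*, 13387 in *Fcmr* and 31794 in *Cr2*. The medians of these 5 and 3 members were -0.27 and -0.40 for 2 h to naive, and -0.35 and -0.84 for 2 h to 3 d. Per the file headers, Cell Ranger 6.0.0 made both transplant tables and 7.1.0 made the naive one, a difference that cannot be told apart from the group.

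At equal depth per cell, the 2-h library had the smallest share for 7 of 8 members, all but *Cd22*. How many of all genes had their smallest share at 2 h was not counted, so nothing is read from that number of members. After each B cell was thinned to 500 UMIs, *Cd79a* was found in 57.4% of naive B cells (53.3 to 61.5), 49.3% at 2 h (45.6 to 52.9) and 60.7% at 3 d (58.6 to 62.9). *Ms4a1* was found in 20.5%, 16.7% and 26.5%, and *Cd22* in 3.50%, 4.55% and 8.49%. At 2 h, 14 of 761 cells were too shallow and were left out, while none were elsewhere. *Cr2* was found in 5.95% (4.16 to 8.22) of naive cells, 2.28% (1.33 to 3.62) at 2 h and 5.35% (4.41 to 6.42) at 3 d. *Fcmr* was found in 14.7% of naive and 15.7% of 3-d cells, and *Ly6d* in 31.2% and 35.5%. The order of naive and 3 d for *Cd79a*, *Cr2*, *Fcmr* and *Ly6d* goes against the CPM. So does that of naive and 2 h for *Cd22*, and none is read from these shares. Before thinning, *Cd79a* was in 93.5%, 68.9% and 98.8% of B cells.

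Counted together, members marked most called B cells. At 500 UMIs a cell, 85.1% of naive B cells, 80.5% at 2 h and 88.4% at 3 d held a UMI of at least 1 member. The same share in T cells, which do not make this receptor, was 1.23%, 0.773% and 2.78%, and in neutrophils 0.260%, 1.22% and 3.18%. At full depth the median B cell held 6, 2 and 6 of the 8 members, and 44, 0 and 232 cells held all of them. With a limit of 3 cells in place of the 0 of 761 at 2 h, the share could be up to 0.394%.

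Each member was more than 10-fold higher in B cells than in T cells of the same library, which held for 8 of 8 genes in all 3. Among all genes, 3.23% of naive, 3.17% of 2-h and 2.16% of 3-d genes were past that limit. *Cd79a* was 388-fold higher in naive B cells (254 to 628), 201-fold at 2 h (114 to 389) and 229-fold at 3 d (166 to 325). The lowest ratio belonged to *Cr2* at 2 h, 12.8-fold (5.99 to 31.3), from 47 UMIs in B cells against 8 in T cells.

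In 17 sums of at least 100000 UMIs each over other lineages, plasmacytoid dendritic cells and cells with no lineage left aside, the median level of a member ran from 0.588 CPM for *Fcer2a* to 8.91 CPM for *Cd79b*, and the highest single value was 23.9 CPM, for *Cd79b* in NK cells at 2 h. These levels count free RNA as well as any RNA of the cells themselves. Plasmacytoid dendritic cells, which were left out of these sums, stood apart for 1 member. *Ly6d* reached 1443 CPM (1198 to 1725) in 6 plasmacytoid dendritic cells of naive lung, 1806 (1411 to 2278) in 20 cells at 2 h and 1522 (1380 to 1674) in 19 cells at 3 d, above its B cell level in every library. Within the 17 sums, *Cd22* was at 19.7 CPM (15.3 to 25.0) in monocytes and macrophages of naive lung, with a UMI in 39 of 212 cells, against 2.24 CPM at 2 h and 4.42 at 3 d.

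**Figure D3:**
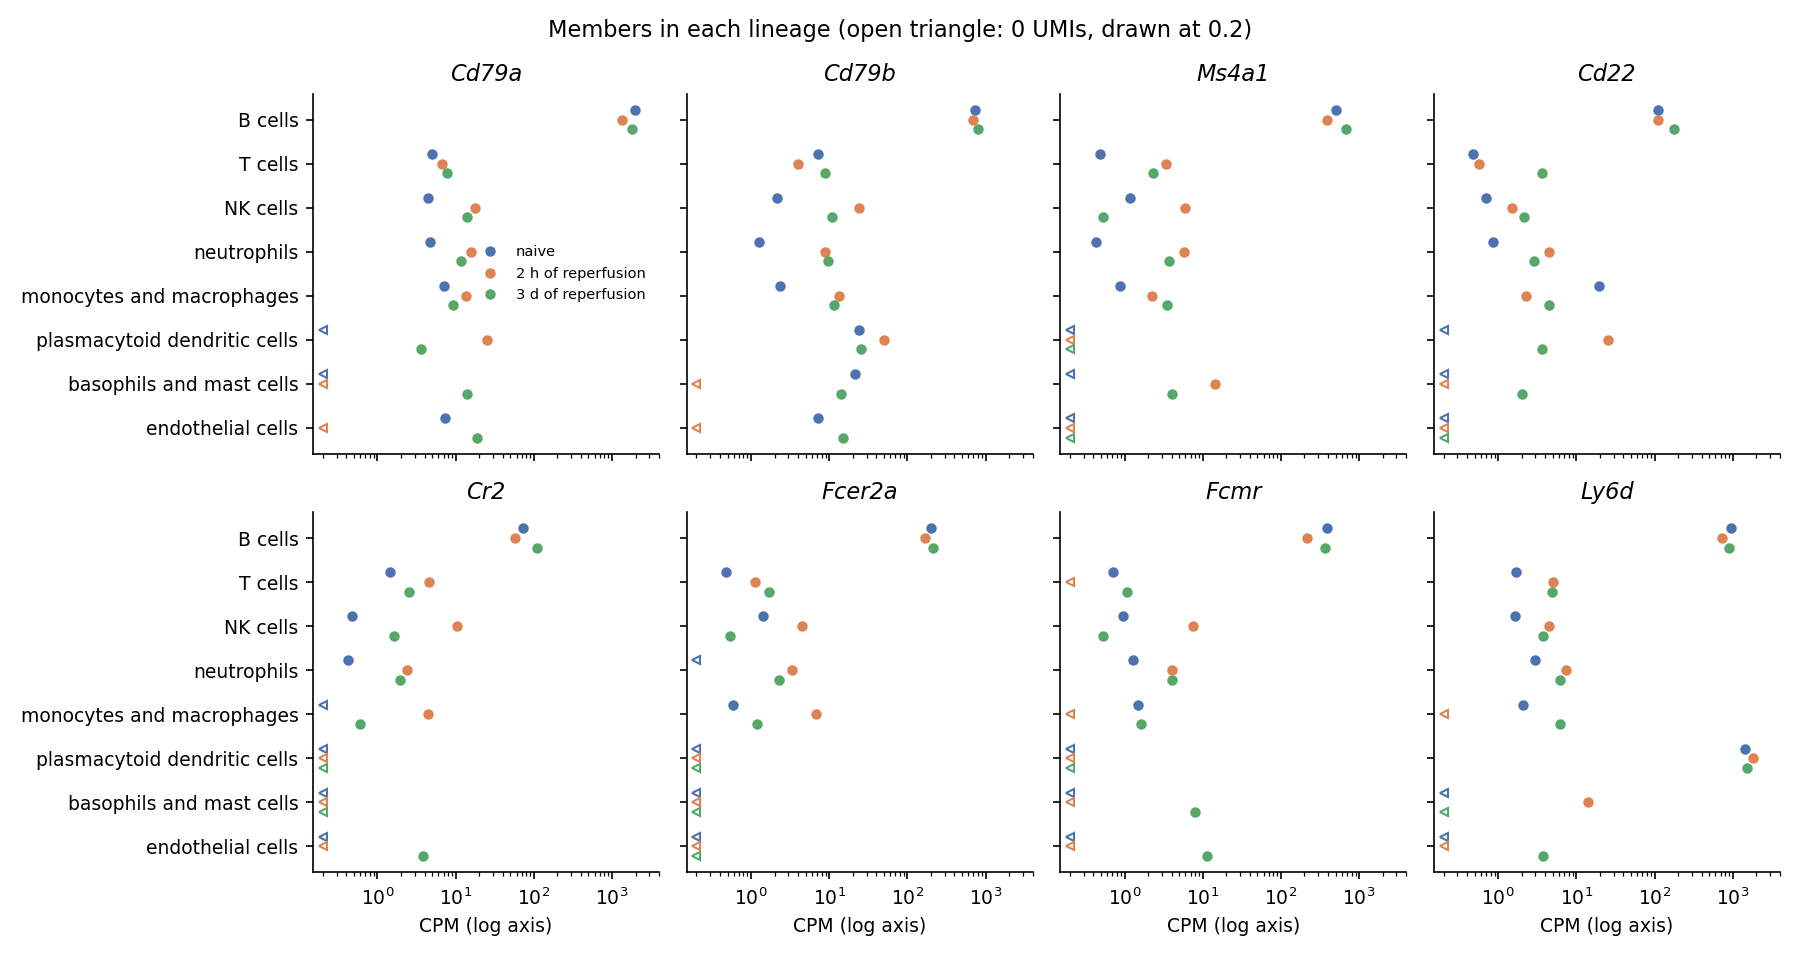
CPM of each member in 8 lineages and 3 libraries on a log axis, where an open triangle at 0.2 marks a sum with 0 UMIs. Each member has its B cell points above 50 CPM and nearly all others below 30, except *Ly6d* in plasmacytoid dendritic cells (1443 to 1806 CPM).

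Both transplant libraries also carried counts of 277 surface antibodies, a panel that names human antigens such as HLA beside shared ones. The antibody to CD45R, the B220 form of CD45 on mouse B cells, bound the called B cells: 98.8% of them at 2 h and 98.7% at 3 d held a UMI of it, with means of 21.4 and 18.1 UMIs a cell. T cells held means of 0.207 and 0.203, and plasmacytoid dendritic cells 6.65 and 4.89. The antibodies to members read almost nothing. Those to CD79b, CD20, CD22, CD21 and CD23 summed to 0, 0, 0, 0 and 1 UMIs over 761 B cells at 2 h and to 6, 0, 0, 0 and 6 over 2037 at 3 d, and no level of the proteins is read from them. Neutrophils held 25 and 19 UMIs of the CD23 antibody over 4511 and 2454 cells. At 2 h this was 0.554% of neutrophils (0.359 to 0.817) against 0.131% of B cells (0.003 to 0.730), with overlapping intervals. Over all antibodies at 2 h, neutrophils held a mean of 139 UMIs a cell and B cells 59.8.

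CD45R also reached cells that the RNA call passed over. At 2 h, 1733 cells held at least 5 UMIs of the antibody, a limit set after the values were seen, and 730 of them were called B cells, 894 had no lineage and 109 another one. The 894 cells held a median of 712.5 UMIs and carried *Cd79a* at 1491 CPM (1403 to 1583), *Ms4a1* at 373 (330 to 421) and *Ly6d* at 783 (719 to 850), beside 1355, 374 and 713 in the 730 called cells. *Cr2* was at 36.5 CPM (23.8 to 53.4) and *Fcer2a* at 121 (96.5 to 149) in them, beside 59.2 and 172. At 3 d only 17 of 2037 CD45R cells had no lineage, and 82 had another one.

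When cells were taken by this antibody in place of the RNA call, every member was again lower at 2 h than at 3 d. The share of all genes lower in these sets was not counted, so nothing is read from that direction. The sets included the cells of another lineage, 109 at 2 h and 82 at 3 d, which held *Cd79a* at 418 and 27.7 CPM. *Cr2* was at 46.0 CPM (36.3 to 57.5) against 106 (100.6 to 112), *Ms4a1* at 349 (322 to 379) against 623 (609 to 637) and *Fcmr* at 205 (184 to 228) against 340.2 (330 to 351). *Cr2* was then past 2-fold, at a log2 ratio of -1.21. *Cd79a* was at 1310 CPM (1256 to 1366) against 1683 (1660 to 1705).

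**Figure D4:**
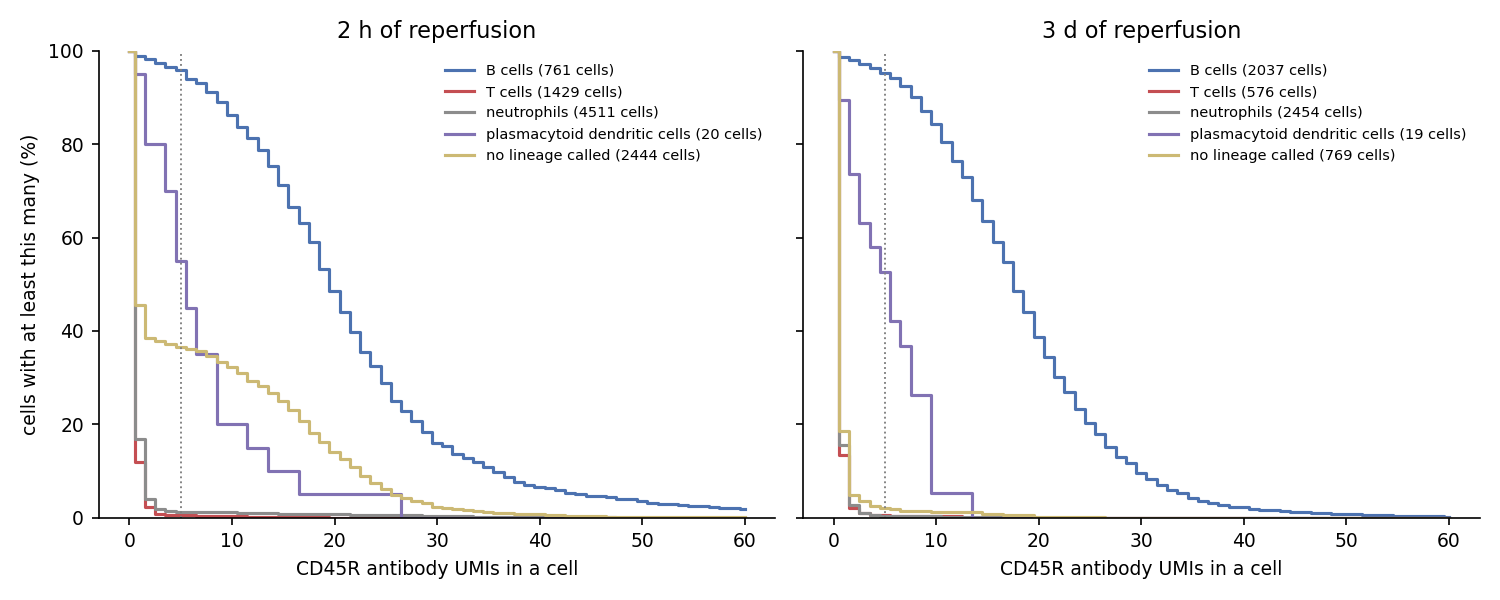
Percent of cells of a lineage (y axis) with at least a given number of CD45R antibody UMIs (x axis) at 2 h and 3 d of reperfusion, with a dotted line at 5 UMIs. The called B cells stay above 95% at that line in both libraries, T cells and neutrophils are near 0, and cells with no lineage called reach 36.6% at 2 h and 2.21% at 3 d.

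Within the B cells, *Fcer2a* and *Cr2* were lower in cells with B-1 genes, though not in these cells alone. The split was by a UMI of *Zbtb32*, *Bhlhe41* or *Cd5*, which mark B-1 cells, a trio trimmed from a longer B-1 list after its values were seen. It set 48, 58 and 152 cells apart in naive, 2-h and 3-d lung, and they were deeper than the rest, with medians of 9694, 1167 and 9124 UMIs against 6115, 833 and 5044. *Fcer2a* was at 133 CPM in these cells and 211 in the others of naive lung, 94.7 and 175 at 2 h, and 92.8 and 229 at 3 d. The log2 ratios were -0.67 (-1.05 to -0.30), -0.88 (-2.13 to 0.14) and -1.30 (-1.55 to -1.06), so the 2-h interval held 0.

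*Cr2* had the same direction, with log2 ratios of -0.79 (-1.49 to -0.16) in naive lung, -1.38 (-4.46 to 0.56, from 2 UMIs) at 2 h and -1.004 (-1.33 to -0.70) at 3 d. With these 3 genes *Ms4a1* had the other one, at 0.30 (0.12 to 0.48), 0.97 (0.54 to 1.39) and 0.52 (0.44 to 0.60). *Fcmr* had no common direction, at -0.23, 0.71 and -0.27. With the full list of 7 B-1 genes at 2 or more UMIs, *Fcer2a* was at -0.94, -0.53 and -0.85 and *Cr2* at -1.09, -2.01 and -0.67. The 2-h values rested on 15 UMIs of *Fcer2a* and 2 of *Cr2*, and the intervals of the CPM overlapped. These were 67.7 to 200 against 145 to 209 CPM for *Fcer2a* and 1.95 to 58.3 against 47.4 to 86.9 for *Cr2*. The higher *Ms4a1* was not seen with that list, where it was at -0.19 (-0.33 to -0.05), 0.22 (-0.24 to 0.64) and 0.01 (-0.05 to 0.07). *S100a8*, a neutrophil gene, moved with that split by 1.90, 1.55 and 3.44. In the split by 3 genes *S100a8* was lower with a B-1 gene, by log2 ratios of -2.21, -0.17 and -0.94. *Cd5* is also a T cell gene, and 7 T cell markers summed to 193, 149 and 91.9 CPM in all called B cells. The part of T cell RNA in the split by 3 genes was not tested. Splits by other genes gave lower values too. With 2 or more UMIs of genes of age-associated B cells at 3 d, *Fcer2a* was at 149 CPM against 243 and *Cr2* at 78.1 against 126. In naive lung *Fcer2a* was not lower with that list, at 208 against 197. With 2 or more UMIs of cycling genes at 3 d, *Cr2* was at 66.4 CPM against 113. *Fcer2a* was at 176 against 214 there, with overlapping intervals.

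**Figure D5:**
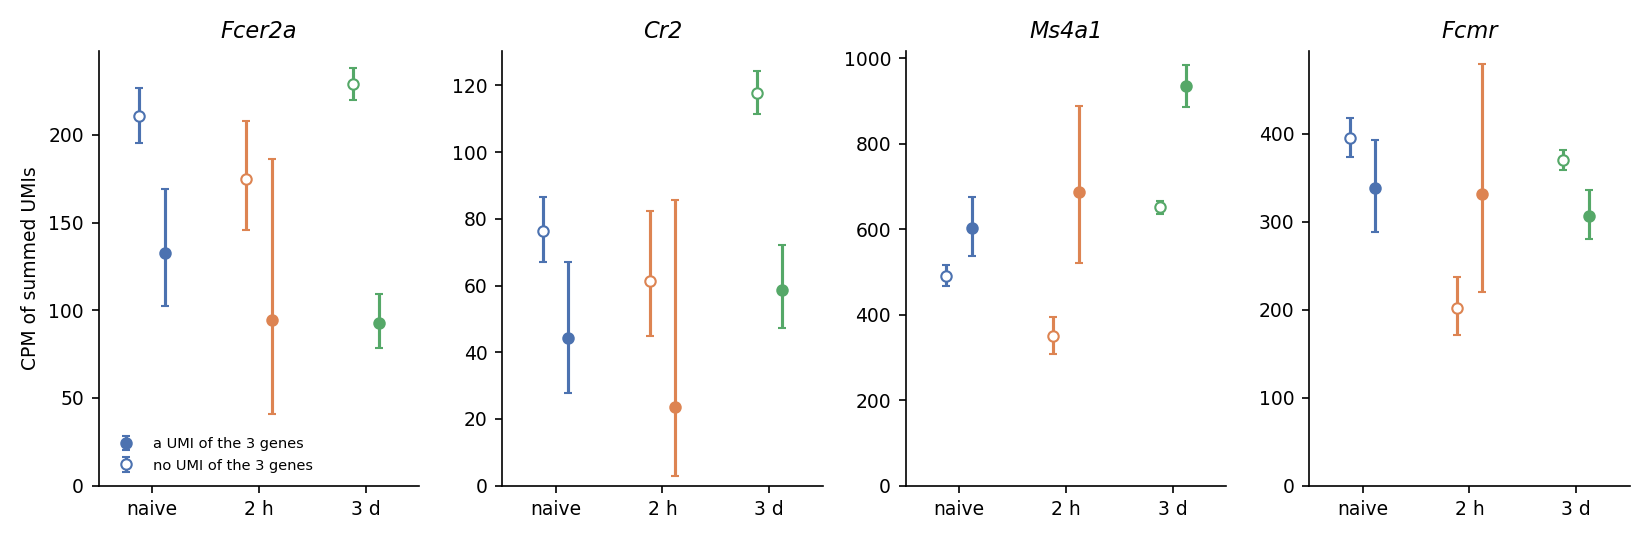
CPM of *Fcer2a*, *Cr2*, *Ms4a1* and *Fcmr* in B cells with (filled) and without (open) a UMI of *Zbtb32*, *Bhlhe41* or *Cd5*, with exact Poisson 95% intervals; each y axis starts at 0. Filled points lie below open ones for *Fcer2a* and *Cr2* and above them for *Ms4a1* in all 3 libraries.

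Light chains split the members as well. A cell below the *Igkc* limit of the B cell call entered only with UMIs of both *Ebf1* and *Bank1*. The part of this filter in the differences below was not tested. Cells with more lambda than kappa UMIs (48, 67 and 95 cells) had higher *Cd79b*, by log2 ratios of 0.69 (0.53 to 0.85) in naive lung, 0.65 (0.29 to 1.002) at 2 h and 0.35 (0.23 to 0.46) at 3 d, and higher *Ly6d*, by 1.03 (0.90 to 1.16), 0.56 (0.19 to 0.91) and 0.26 (0.14 to 0.37). *Ms4a1* was higher too, at 657, 527 and 889 CPM in lambda and 506, 373 and 681 in kappa cells. *Cr2* (34.8, 39.6 and 88.7 against 75.2, 58.2 and 112 CPM) and *Fcer2a* (164, 158 and 128 against 209, 172 and 218) were lower in lambda cells. The intervals of *Cr2* parted only in naive lung and those of *Fcer2a* only at 3 d, and those of *Ms4a1* overlapped at 2 h. *Cd22* was at 107, 65.9 and 150 CPM against 111, 116 and 180. Its intervals overlapped in every library, so it is not read as lower. At 2 h the lambda cells held only 3 UMIs of *Cr2*, 5 of *Cd22* and 12 of *Fcer2a*. *Cd79a* and *Fcmr* were not higher in lambda cells at 3 d. *S100a8* moved with the split, at 480.4 CPM in lambda and 37.2 in kappa cells of naive lung, 923 and 1260 at 2 h and 2417 and 1332 at 3 d, and its part in the result was not tested.

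Few cells had left the IgM and IgD stage. In 17 cells over the 3 libraries, UMIs of other heavy chain classes exceeded those of *Ighm* and *Ighd*. At 3 d, where 11 of them were, *Fcmr* was at 66.5 CPM (30.4 to 126) against 365 (355 to 376) in the rest, *Cr2* at 7.39 (0.187 to 41.2) against 111 (106 to 117) and *Ms4a1* at 1360 (1170 to 1571) against 679 (664 to 694). In 4 barcodes where *Jchain* made up at least 1% of UMIs, as in antibody-secreting cells, *Ms4a1*, *Cd22*, *Cr2* and *Fcer2a* had 0 UMIs of 53526. With a limit of 3 UMIs in place of 0, up to 56.0 CPM is allowed in these barcodes. *Cd79a* had 23 UMIs there, *Cd79b* 7, *Fcmr* 1 and *Ly6d* 27. One of these barcodes came from 3 d and was over the UMI limit of the filter.

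The immunoglobulin chains of the receptor moved with its subunits in part. *Ighm*, the IgM heavy chain, was at 2234 CPM in naive B cells, 1374 at 2 h and 2531 at 3 d. *Ighd*, the IgD chain, was at 616, 640.1 and 977. The lambda genes *Iglc2* (617, 764 and 459 CPM) and *Iglc3* (321, 377 and 224 CPM) were highest at 2 h. Of 6 chain genes, 1 was past 2-fold in any comparison, *Iglc1*, lower at 3 d than in naive lung (-1.14, -1.23 to -1.05). In that comparison 18% of all genes were past 2-fold lower, so nothing is read from the count about the chains. Another of the 6, *Igkc*, was used in the B cell call.

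Most other coreceptors stayed within 2-fold, and so did most of all genes. Nothing is read about the list from the counts that follow. Of 15 listed genes tested, 0 were past 2-fold higher and 3 lower at 2 h than in naive lung, where 9.01% and 28.1% of all genes were. At 3 d, 0 and 0 were past 2-fold from naive (4.76% and 18% of all genes), and 0 and 1 were at 2 h against 3 d (6.67% and 14%). *Siglecg*, a sialic acid lectin related to CD22, was the one gene of the list past 2-fold between the transplant libraries, at 73.4 CPM at 2 h and 196 at 3 d (log2 ratio -1.42, -1.81 to -1.05). *Cd24a*, a GPI-anchored protein of young B cells, was higher at 2 h than in either library, by 0.66 (0.43 to 0.88) to naive and 0.42 (0.22 to 0.62) to 3 d, and *Cd180*, a Toll-like receptor relative, was highest in naive B cells at 110 CPM against 62.4 and 55.8.

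Of 22 signaling genes that act behind the receptor, 17 were past 2-fold lower than naive at 2 h, where 28.1% of all genes were, and 8 at 3 d, against 18%. None was past 2-fold higher, and the medians were -1.52 and -0.82. Between 2 h and 3 d, 8 were past 2-fold lower, against 14% of all genes, with a median of -0.73. Intron length moved with these counts: all 8 genes of the list with over 100 kb of intron were past 2-fold lower at 2 h than in naive lung, 9 of 13 with 10 to 100 kb were, and the 1 gene with less, *Bcl10*, was not. For all genes the medians of the 2 longer classes were -2.10 and -0.55, and the part of intron length in the list's counts was not tested. *Blk*, a Src family kinase of B cells, was at 220 CPM, 40.4 and 147 in naive, 2-h and 3-d B cells, and *Vav2*, an exchange factor, at 65.5, 8.57 and 33.3. *Lyn*, the kinase that phosphorylates CD79A and CD22, ran the other way between the transplant libraries, at 1653 CPM in naive lung, 602 at 2 h and 330.3 at 3 d. *Bcl10*, an adaptor to NF-kB, was at 142 CPM at 2 h, 95.7 in naive lung and 122 at 3 d, with a log2 ratio of 0.57 to naive at 2 h and 0.35 at 3 d. In T cells, 9 of the 17 genes tested in both lineages were past 2-fold lower at 2 h than in naive lung and 1 higher. The share of all T cell genes past 2-fold was not counted, so nothing is read from this T cell count.

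Inhibitors gave a mixed list of 12 tested. *Ptpn22*, a tyrosine phosphatase, was the gene past 2-fold higher at 2 h in both comparisons, at 305 CPM against 65.7 in naive and 61.03 in 3-d B cells. *Cbl*, a ubiquitin ligase, was at 137, 57.5 and 123 CPM, with 2 h past 2-fold lower than both. *Dok3*, an adaptor that recruits inhibitory enzymes, stayed at 86.7, 84.4 and 72.2. In all, 2 were past 2-fold higher and 5 lower at 2 h than in naive lung, beside 9.01% and 28.1% of all genes. At 3 d 1 and 3 were (4.76% and 18% of all genes), and 1 and 2 at 2 h against 3 d (6.67% and 14%).

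Of 13 transcription factors, 4 were past 2-fold lower at 2 h than in naive lung, 2 at 3 d and 2 at 2 h against 3 d, beside 28.1%, 18% and 14% of all genes, with none higher. These counts are near the shares of all genes, and nothing is read from them about the list. *Spib*, an Ets factor that acts with the receptor's signaling, was at 124 CPM, 71.0 and 173 in naive, 2-h and 3-d B cells. *Ikzf3*, the zinc finger factor Aiolos, was at 510.1, 72.2 and 179. *Ets1* (1035, 1585 and 1049 CPM) was higher at 2 h by 0.62 to naive and 0.60 to 3 d. *Bcl6*, the factor of germinal center B cells, was at 58.1, 53.8 and 34.9 CPM.

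Of 15 genes that the receptor is known to induce, 8 were past 2-fold higher and 1 lower at 2 h than in naive lung, where 9.01% and 28.1% of all genes were. At 3 d 2 and 1 were (4.76% and 18% of all genes), and 7 and 2 at 2 h against 3 d (6.67% and 14%). All 8 had under 10 kb of intron or none. *Egr1*, an immediate-early zinc finger factor, was at 36.3 CPM in naive B cells, 317 at 2 h and 60.5 at 3 d, and *Egr3* at 26.2, 176 and 30.8. *Cd86*, a costimulatory ligand, was lowest at 2 h, at 729, 77.1 and 193 CPM, and so was *Nr4a3*, an orphan receptor, at 53.8, 28.1 and 63.8. *Nr4a1*, which encodes Nur77 and was named after its values were seen, was at 328 CPM in naive lung, 255 at 2 h and 332 at 3 d, with a log2 ratio at 2 h of -0.37 to naive (-0.58 to -0.15) and -0.38 to 3 d (-0.59 to -0.18). The neutrophil markers summed to 285, 4354 and 3919 CPM in the same B cells. In T cells 7 of the 12 genes tested in both lineages were past 2-fold higher at 2 h than in naive lung. The median of the 12 was 1.17 in T cells and 0.65 in B cells. The share of all T cell genes past 2-fold was not counted, so nothing is read from the T cell count. The parts of the receptor, of intron length and of neutrophil RNA in the B cell values were not tested.

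Across 21 sums of a lineage in a library, the levels of the members ran closely with each other, except *Ly6d*, and with those of other B lineage genes. The closest pair of members was *Fcer2a* and *Ms4a1* (Pearson r = 0.99 on log2(CPM + 10)), and the pairs of *Ly6d* ran from 0.76 to 0.84. With the members themselves and immunoglobulin genes left out of the search, *Vpreb3*, a chaperone-like protein of the pre-B receptor family, was the gene most like *Cd79a* (0.99, 10900 genes searched), *Fcer2a* (0.99), *Fcmr* (0.98) and *Cd79b* (0.97). *Bfsp2* came first for *Ms4a1* (0.99) and *Cd22* (0.95), and *Tnfrsf13c*, the BAFF receptor, for *Cr2* (0.97). For *Ly6d* the first were *Blnk* (0.98), *Mzb1* (0.97) and *Fcrla* (0.96). The 21 points share libraries and depth. Each library gave a single sum of B cells, and most other sums held little RNA of the members. Genes largely confined to B cells thus have a high r here, and these values describe where the RNA was found.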

How the data were processed

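Single-cell RNA sequencing of 3 libraries, 1 per group, was read from the deposited tables of counts, which the authors made on mm10 with Cell Ranger (per the file headers, 6.0.0 for transplants and 7.1.0 for naive lung), with Seurat 4 named in the submitters' processing notes. The sources used here do not give whether introns were counted, and the labels and the methods differ on 5′ or 3′ chemistry. Cells were kept with over 200 and under 6000 genes, under 10% mitochondrial UMIs and under 25000 UMIs. A B cell had at least 2 of 3: *Igkc* (2 UMIs and 0.1% of UMIs), *Ebf1* and *Bank1*, with *Jchain* under 1%. Other lineages were called from markers, at least 3 UMIs and 0.3% (neutrophils and conventional dendritic cells 1%) of UMIs, limits set after the values were seen. Doublets stayed in. Scrublet (scanpy 1.11.5) called 40, 403 and 277 of all kept cells, among them 17, 88 and 131 B cells (3.0%, 11.6% and 6.4% of B cells). UMIs were summed per library and scaled to 1000000. Intervals are exact (95%, scipy 1.17.1), and counts past 2-fold took only genes whose CPM averaged 10 or more over the 3 libraries. The depth per library sets the precision: 3772040, 817104 and 12420592 UMIs in B cells. On simulated sums of the comparison of 2 h with 3 d (7568 genes), 100% of 200 genes changed 4-fold came out past 2-fold, with 1.22% of unchanged genes. These sums were Poisson draws with counting error only. They held no spread between animals and no RNA of other cells, so 1.22% is not an error rate for the libraries. Named were the members, of each list the 2 genes with the highest and the 2 with the lowest ratio of 2 h to 3 d, and up to 3 genes most like each member, with 1 gene of these not reported here. *Iglc1* and the splits of B cells by CD45R, B-1 genes, light chain and heavy chain class were added after values were seen. Alternatives varied the cell filter, the B cell call, doublets, thinning, scaling and the free RNA level. Members and lists were chosen with earlier results of these data known.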

Additional observations from a re-analysis of the deposited data

How the results depend on the processing

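Of 272 member ratios recomputed under 12 alternatives, 190 stayed within the counting interval of the reported value and 82 left it. Ratios of 2 h to 3 d kept their direction in 12 of 12 alternatives for 7 members, and in 11 of 12 for *Cd79b*. The ratio of 2 h to naive changed sign in 9 of 11 alternatives for *Cd22*, 6 for *Cd79b*, 1 each for *Ms4a1*, *Cr2*, *Fcer2a* and *Ly6d* and 0 for *Cd79a* and *Fcmr*, and that of 3 d to naive in 6 for *Cd79a*, 5 for *Fcmr*, 6 for *Ly6d* and 0 for the others. The counts of members past 2-fold, 0 in each comparison, became 1 (*Fcmr*) for 2 h against naive where a B cell needed all 3 genes of the call, and for 2 h against 3 d became 2 (*Ms4a1* and *Cr2*) under that call and 1 (*Cr2*) with B cells called from *Ebf1* and *Bank1*, with cells called or thinned at 500 UMIs, with the level of T cells subtracted and with cells taken by CD45R, the last chosen after seeing the data. The median member ratio of 2 h to naive was -0.36, and -0.03 without B cells that held UMIs of T or myeloid genes. That filter, whose UMI limits took no account of depth, removed 287 of 571 naive, 111 of 761 2-h and 1534 of 2037 3-d B cells. The cause of the change was not tested. The highest share of T cells with a UMI of a member, 6.42%, was 0.521% at 500 UMIs a cell. In the other random draw of UMIs, used for the shares above, the highest was 1.22%, for *Cd79a* at 3 d. Genes past 2-fold between 2 h and 3 d made up 20.7% of those tested and 29.1% with no CPM minimum. No paired analysis was possible because each group had 1 library. The 817104 B cell UMIs at 2 h limit *Cr2* and *Cd22* most, with 47 and 90 UMIs.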
